A study of Mus musculus with 5 samples.

Results

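The families of miR-130 with miR-301 and of miR-148 with miR-152 are broadly conserved miRNAs of mammals that were followed here through the healing of skin wounds in aged mice. Their members were taken by name, as the 3p arms of miR-130a, miR-130b, miR-301a, miR-301b, miR-148a, miR-148b and miR-152, a rule that uses no measured value. The arrays held all 7 of them among 1900 mouse miRNAs, with 4 in the miR-130 and miR-301 family and 3 in the miR-148 and miR-152 family. Of the 7 members, 4 were bright on all 5 arrays, 1 was bright on a single array, and 2 were bright on none. Bright means here a mean scanned intensity above 2 times the detection level of that array, which is the 95th percentile of its 4 empty spots.

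The samples were back skin of female mice in telogen, the resting phase of the hair cycle. The aged group was 2 years old and was sampled unwounded (D0) and at 3, 5 and 7 days (D3, D5 and D7) after a full-thickness punch wound of 3 mm. Unwounded skin of 8-week-old mice (young D0) was the only young sample analysed, and no genotype, strain or drug treatment is named in the labels. Each of the 5 conditions was measured on 1 single-colour array from 0.5 ug of total RNA, and how many mice stood behind each array is not stated. With 1 array per condition, no difference reported here has a replicate check, no test was possible, and animal and condition cannot be told apart.

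A miRNA guides a silencing complex to messenger RNAs, chiefly through its seed, bases 2 to 8 counted from the 5′ end. miR-130 family members are known for repressing Pparg, the master regulator of fat cell formation, and miR-148 and miR-152 family members for acting on Dnmt1, the enzyme that maintains DNA methylation. Skin holds a layer of fat beneath the dermis, and its epidermal progenitors depend on Dnmt1, so both targets have roles known in this tissue. Pparg and Dnmt1 themselves were not measured by these arrays.

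The 7 mature sequences are shown to let the seeds be compared, with bases 2 to 8 in capitals.
miR-130a-3p: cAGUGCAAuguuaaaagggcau
miR-130b-3p: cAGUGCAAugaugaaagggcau
miR-301a-3p: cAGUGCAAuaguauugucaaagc
miR-301b-3p: cAGUGCAAugguauugucaaagc
miR-148a-3p: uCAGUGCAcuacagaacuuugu
miR-148b-3p: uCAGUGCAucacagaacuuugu
miR-152-3p: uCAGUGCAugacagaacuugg
The first 4 shared the seed AGUGCAA and the last 3 the seed CAGUGCA. The run CAGUGCA lay at base 1 in the miR-130 and miR-301 family and at base 2 in the miR-148 and miR-152 family, so that the 2 seeds were shifted against each other by 1 base. Among all 1900 miRNAs, 11 held CAGUGCA at base 1 or 2, which is 0.579%, namely the 7 members and 4 others with the seed AGUGCAA (mmu-miR-130c, mmu-miR-6341, mmu-miR-6389 and mmu-miR-721).

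Outside the seed, miR-148a-3p and miR-148b-3p differed at 2 of 22 positions, C9U and U10C, with the base of the first-named miRNA first and positions counted from the 5′ end. miR-148b-3p and miR-152-3p differed by C10G and U20G over the first 21 positions. miR-130a-3p and miR-130b-3p differed by U11A and A13G, and miR-301a-3p and miR-301b-3p by A10G alone. How far probes of such close relatives share signal was not tested.

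RefSeq listed an identical mature sequence for 6 of the 7 members, at these positions of the GRCm38.p6 assembly. The mature miR-130a-3p lies at chr2:84741116-84741137 on the minus strand. The mature miR-148a-3p lies at chr6:51269829-51269850 on the minus strand, within the gene model Gm38821. The mature miR-148b-3p lies at chr15:103285185-103285206 on the plus strand within Copz1, and miR-152-3p at chr11:96850439-96850459 on the plus strand within Copz2. Copz1 and Copz2 encode alternative zeta subunits of the COPI vesicle coat, so this pair of miRNAs sits in paired host genes. The mature miR-130b-3p lies at chr16:17124071-17124092 on the minus strand, next to Mir301b, and miR-301a-3p at chr11:87113054-87113076 on the plus strand within Ska2. The sequence of miR-301b-3p was taken from the array.

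The arrays differed in brightness before normalization. Detection levels ran from 58.3 to 107 intensity units, bright miRNAs numbered 210 to 342 on an array, and 199 miRNAs were bright on all 5. Levels below are linear values after quantile normalization, in arbitrary units, and they are comparable between arrays for 1 probe but not between probes. Each ratio is the quotient of 2 such levels. Over the 199 miRNAs bright on all arrays, the median ratio was 0.787 for D3 over D0, 0.945 for D5 over D0, 0.894 for D7 over D0 and 1.16 for aged over young D0, and these medians are the reference for the relative ratios given for the members. The error given with a comparison is the SD of a log2 ratio from the 2 repeat spots of a miRNA. It was 0.14 for D3 over D0, 0.13 for D5 over D0, 0.25 for D7 over D0 and 0.14 for aged over young D0, and it covers the array only.

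mmu-miR-130a-3p was the only member of the miR-130 and miR-301 family that was bright on all 5 arrays. Its mean scanned intensity was 1023.8 on aged D0, 454.1 on D3, 668.9 on D5, 1189.2 on D7 and 2116.1 on young D0. After normalization its level was 1285 on aged D0, 545 on D3, 1039 on D5, 1049 on D7 and 870 on young D0. The D3 array held the lowest level, and its gap to young D0, next above it, exceeded 2 SD of the repeat spots. The other 4 arrays formed a row in which no neighbours differed by more than 2 SD. Arrays further apart in this row did: aged over young D0 was 1.48 and D5 over aged D0 was 0.81, both past 2 SD. The ratio of D3 over D0 was 0.42, with 0.44 and 0.41 from the repeat spots. The step from D3 to D5 had a ratio of 1.91, and D7 over D5 was 1.01.

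mmu-miR-148a-3p scanned at 436.8 on aged D0, 323.3 on D3, 276.8 on D5, 980.6 on D7 and 2274.2 on young D0. Its normalized level was 615 on aged D0, 382 on D3, 383 on D5, 848 on D7 and 944 on young D0. D3 and D5 were both below every unwounded array and nearly equal to each other, and D0 exceeded D5 by more than 2 SD of the repeat spots. D7 and aged D0 did not differ beyond 2 SD, nor did young D0 and D7. Aged D0 and young D0 did, with an aged over young ratio of 0.65. Divided by D0, these levels gave 0.62 for D3, 0.62 for D5 and 1.38 for D7, and D7 over D5 was 2.21, the largest upward step of any bright member between neighbouring days.

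mmu-miR-148b-3p, which differs from miR-148a-3p by the 2 bases given above, scanned at 264.7 on aged D0, 180.6 on D3, 142.2 on D5, 379.0 on D7 and 678.1 on young D0. Its normalized level was 360 on aged D0, 220 on D3, 199 on D5, 317 on D7 and 347 on young D0. The 3 arrays of aged D0, young D0 and D7 stood together, and D7 exceeded D3 by more than 2 SD. Divided by D0, they gave 0.61 for D3, 0.55 for D5 and 0.88 for D7.

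mmu-miR-152-3p scanned at 711.4 on aged D0, 389.0 on D3, 416.3 on D5, 1310.7 on D7 and 2140.0 on young D0. Its normalized level was 933 on aged D0, 454 on D3, 616 on D5, 1162 on D7 and 885 on young D0. D3 was lowest and D5 next, each apart from the array above it by more than 2 SD, and no neighbours among young D0, aged D0 and D7 differed beyond 2 SD. Divided by D0, they gave 0.49 for D3, 0.66 for D5 and 1.25 for D7.

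**Figure D1:**
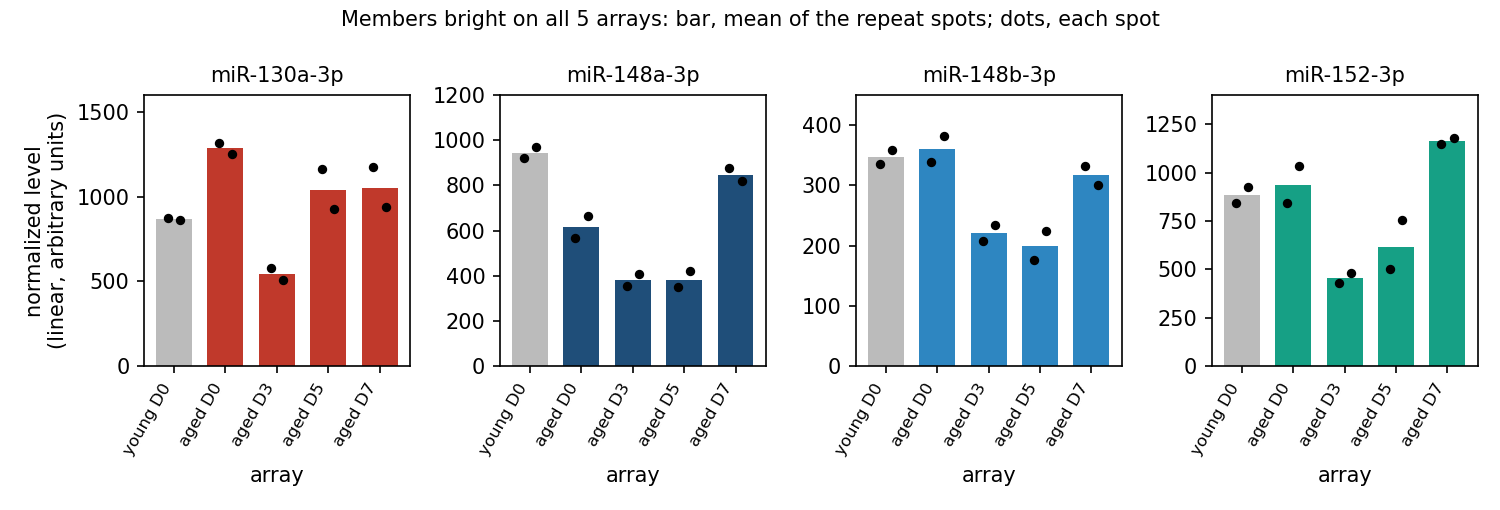
Normalized levels (linear, arbitrary units) of the 4 members bright on all 5 arrays, with a grey bar for young D0 and coloured bars for aged D0, D3, D5 and D7. Bars are means of the repeat spots and dots are the single spots, each panel has its own axis, and there is 1 array per bar. The D3 bar is lowest for miR-130a-3p (545) and miR-152-3p (454), while the D5 bar is lowest for miR-148b-3p (199).

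The first comparison asked how the early wound differed from unwounded aged skin. All 4 members bright on both arrays had lower levels on D3 than on D0, with ratios from 0.42 to 0.62, and their relative ratios were 0.54 for miR-130a-3p, 0.62 for miR-152-3p, 0.78 for miR-148b-3p and 0.79 for miR-148a-3p. Of the 5 members bright on at least 1 of the 2 arrays, 2 were at least 2-fold apart, miR-130a-3p and miR-152-3p, both lower on D3. Over all 345 miRNAs bright on at least 1 of these arrays, 105 were at least 2-fold apart, 30.4%, so that the members' count was near this background. The median ratio of the 5 members was 0.613, against 0.967 over the 345 miRNAs. Only 207 of the 345 were bright on both arrays, and those bright on D3 alone entered where they were high. Over the 199 miRNAs bright on all arrays the median was 0.787. Of the 199 miRNAs bright on all arrays, 27 had a smaller ratio than miR-130a-3p and 36 a smaller one than miR-152-3p. Across the 15 ways of processing with ratios, the relative ratio of miR-130a-3p lay between 0.505 and 0.574 and that of miR-152-3p between 0.576 and 0.670, while their plain ratios ran from 0.292 to 0.616 and from 0.363 to 0.766. The count of 2 itself ran from 0 to 5 over the alternatives. In the values processed by the authors neither miR-130a-3p (0.516) nor miR-152-3p (0.583) was 2-fold apart.

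Base composition moved with this comparison. The members held between 39.1% and 47.6% G and C, and among the 199 bright miRNAs those with at most 42.9% had a median D3 over D0 ratio of 0.668, against 1.83 for those with at least 59.5%. The same medians were 0.907 and 1.3 for D5 over D0, 0.989 and 1.03 for D7 over D0, 1.38 and 0.666 for D5 over D3, and 1.27 and 0.706 for D7 over D5. The part of base composition in the members' ratios was not tested.

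On D5, miR-130a-3p was at 0.81 of its D0 level, with a relative ratio of 0.86, whereas miR-148a-3p, miR-148b-3p and miR-152-3p had ratios of 0.62, 0.55 and 0.66 and relative ratios of 0.66, 0.58 and 0.70. None of the 4 members bright on at least 1 of the 2 arrays was 2-fold apart between D5 and D0, against 18.9% of 296 miRNAs. To compare members with each other, the ratio of one was divided by the ratio of another, a quotient that does not depend on any scaling of whole arrays. Quantile normalization is not such a scaling, so the quotients still differed between ways of processing. For D5 over D0 the ratio of miR-130a-3p divided by that of miR-148a-3p was 1.3, and divided by that of miR-152-3p it was 1.23, both within 2 SD of the repeat spots (SD of 0.19 on the log2 scale), while divided by that of miR-148b-3p it was 1.46, past 2 SD. Over the alternatives these quotients ran from 1.01 to 1.44, from 1.01 to 1.49 and from 1.16 to 1.92. The last was thus within 2 SD at its lowest, which was without normalization. For D5 over D3, miR-130a-3p had a ratio of 1.91, miR-152-3p of 1.36, miR-148a-3p of 1.004 and miR-148b-3p of 0.90. The ratio of miR-130a-3p divided by that of miR-148a-3p was 1.90, by that of miR-148b-3p 2.11 and by that of miR-152-3p 1.41, with ranges over the alternatives of 1.69 to 2.06, 1.80 to 2.44 and 1.15 to 1.72. Members of the miR-148 and miR-152 family differed among themselves too. The quotient of miR-148a-3p over miR-152-3p was 0.74 (0.650 to 0.843 over the alternatives) and that of miR-148b-3p over miR-152-3p 0.67 (0.595 to 0.767). All 5 of these D5 over D3 quotients were past 2 SD in the main processing, with an SD of 0.18 on the log2 scale. At the end of their range nearest 1, those of miR-130a-3p and of miR-148a-3p over miR-152-3p were within 2 SD. None of the 5 members bright on D3 or D5 was 2-fold apart between these days, against 13.8% of 354 miRNAs.

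On D7 the miR-148 and miR-152 family stood higher than on D5, with D7 over D5 ratios of 2.21 for miR-148a-3p, 1.59 for miR-148b-3p and 1.89 for miR-152-3p, while miR-130a-3p was at 1.01. Only miR-148a-3p of the 4 bright members was at least 2-fold apart, against 15% of 326 miRNAs. The median ratio for D7 over D5 was 1.73 over these 4 members and 0.926 over the 326 miRNAs, beside 1.27 over the bright miRNAs with at most 42.9% G and C. The ratio of miR-130a-3p divided by that of miR-148a-3p was 0.46, between 0.40 and 0.52 over the alternatives, and divided by that of miR-152-3p it was 0.53, between 0.44 and 0.65. Both quotients exceeded 2 SD, with an SD of 0.31 on the log2 scale. The repeat spots disagreed more on D7 than on the other days, and gave 2.51 and 1.95 for miR-148a-3p.

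Against D0, none of the 4 bright members was 2-fold apart on D7, while 21% of 309 miRNAs were. miR-148a-3p at 1.38 and miR-152-3p at 1.25 were above their D0 level under all 15 ways of processing, from 1.23 to 2.63 and from 1.14 to 2.18. miR-130a-3p at 0.82 and miR-148b-3p at 0.88 were below it in the main processing and above it in 3 and 4 of the 15. The median ratio of the 199 miRNAs moved from 0.758 under scaling to the 75th percentile to 1.44 under scaling to the 5S probes, and relative to it miR-148a-3p stayed between 1.28 and 1.82 and miR-152-3p between 1.19 and 1.55. None of these 4 differences from D0 exceeded 2 SD of the repeat spots.

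**Figure D2:**
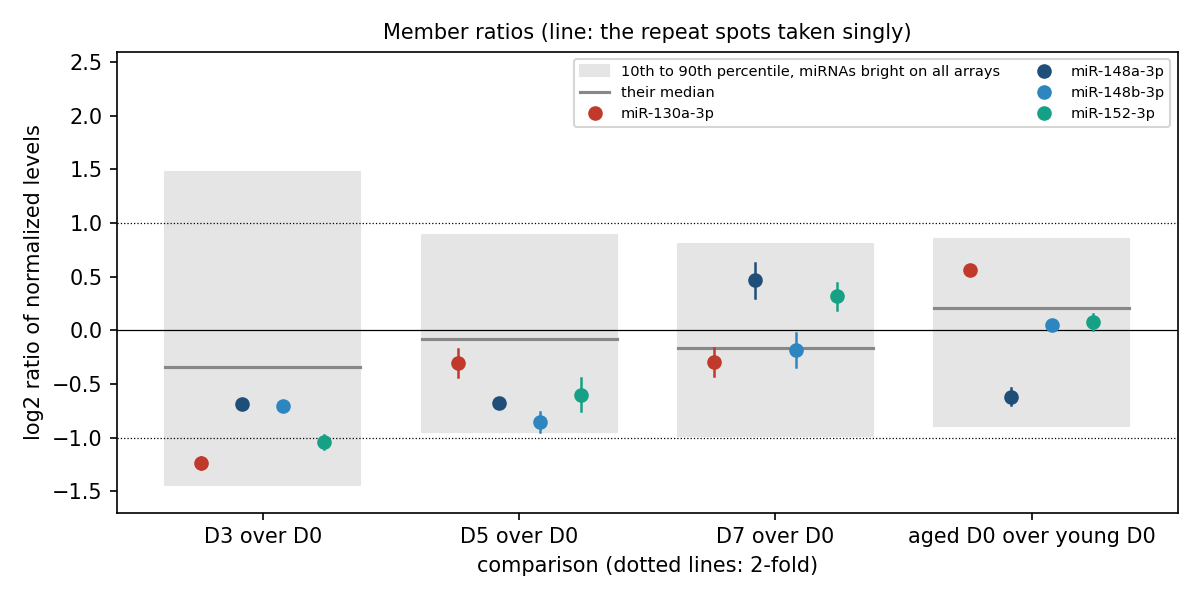
Log2 ratios of normalized levels for the 4 bright members in 4 comparisons, with vertical lines joining the values of the repeat spots taken singly. Grey boxes span the 10th to 90th percentile and grey lines mark the median of the 199 miRNAs bright on all arrays. miR-130a-3p and miR-152-3p lie past the dotted 2-fold line on D3, all 4 points lie below 0 on D5, and miR-148a-3p and miR-130a-3p lie on opposite sides of 0 in aged over young skin.

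The comparison of unwounded skin asked whether age alone was accompanied by different levels, and here miR-148a-3p and miR-130a-3p stood on opposite sides of the other members. The level of miR-148a-3p was 615 in aged and 944 in young skin, a ratio of 0.65, with 0.62 and 0.69 from the repeat spots. miR-148b-3p had a ratio of 1.04, miR-152-3p of 1.05 and miR-130a-3p of 1.48. None of the 4 members was at least 2-fold apart, against 18.3% of 339 miRNAs. miR-148a-3p was lower in aged skin under all 15 ways of processing, from 0.172 to 0.687, and its relative ratio of 0.56 ranged from 0.414 to 0.583.

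These differences among members were larger than the spread between spots. The ratio of miR-148a-3p divided by that of miR-148b-3p was 0.63, between 0.49 and 0.65 over the alternatives, and divided by that of miR-152-3p it was 0.62, between 0.57 and 0.64. The ratio of miR-130a-3p divided by that of miR-148b-3p was 1.42, between 1.24 and 1.48, and divided by that of miR-152-3p it was 1.40, between 1.31 and 1.5. Between miR-130a-3p and miR-148a-3p, whose ratios lay on opposite sides of 1, the quotient was 2.27, between 2.12 and 2.53. Each of these 5 quotients exceeded 2 SD, with an SD of 0.19 on the log2 scale. The quotient of miR-148b-3p over miR-152-3p was 0.98, between 0.96 and 1.19, within 2 SD.

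The sign of the age ratio was less certain for the other members, since bright miRNAs scanned higher on young D0 than on aged D0. The median scanned intensity of all miRNA spots was not higher, at 94.4 on young D0 and 97.4 on aged D0. Without normalization the aged over young ratios were 0.48 for miR-130a-3p, 0.39 for miR-148b-3p, 0.33 for miR-152-3p and 0.19 for miR-148a-3p, with a median of 0.462 over the 199 miRNAs. miR-130a-3p was above 1 in 11 of the 15 ways of processing, and its relative ratio was above 1 in all 15, from 1.05 to 1.33. miR-148b-3p and miR-152-3p had relative ratios below 1 in all 15, from 0.812 to 0.903 and from 0.715 to 0.940. The aged D0 array served in both the wound and the age comparisons, so a deviation of that array would enter each of them. On D7 over young D0, where that array takes no part, miR-148a-3p had a ratio of 0.90, miR-148b-3p of 0.91 and miR-130a-3p of 1.21. There the quotient of miR-148a-3p over miR-148b-3p was 0.98, against 0.63 in unwounded skin, and that of miR-130a-3p over miR-148a-3p was 1.34, against 2.27. That of miR-148a-3p over miR-152-3p was 0.68, beside 0.62, and that of miR-130a-3p over miR-148b-3p was 1.32, beside 1.42. That of miR-130a-3p over miR-152-3p was 0.92, against 1.40. All were within 2 SD, but the SD was larger (0.31 on the log2 scale) and D7 is a wound array. These values thus cannot decide whether the separation seen in unwounded skin rests on the aged D0 array.

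**Figure D3:**
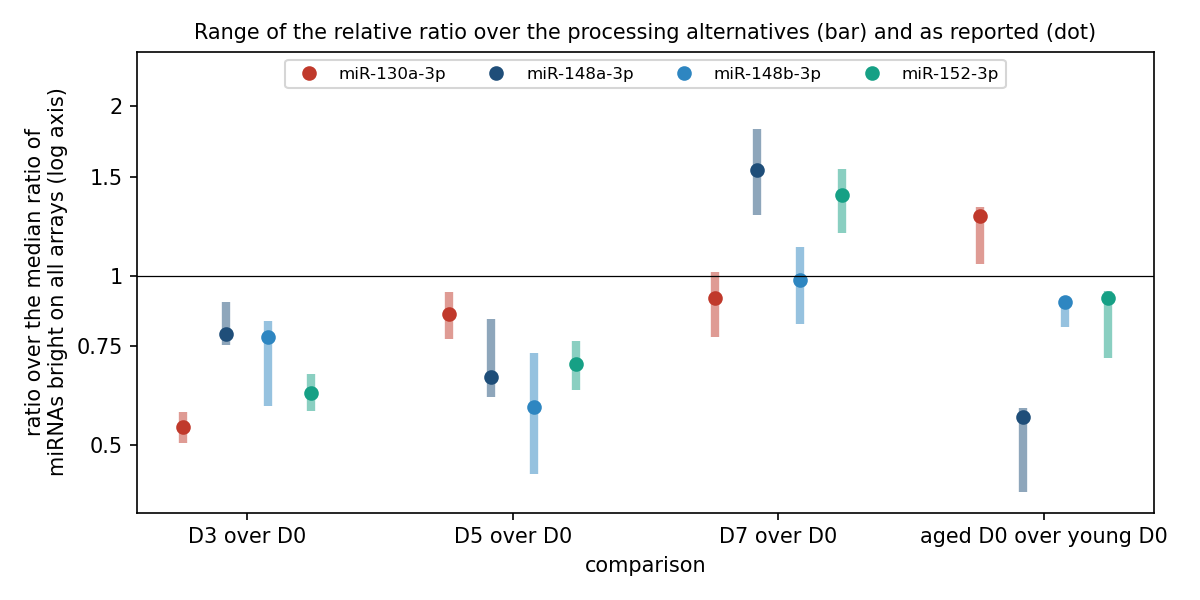
Ratio of each bright member divided by the median ratio of the 199 miRNAs bright on all arrays, on a log axis, for 4 comparisons. Dots are the values as reported and bars run from the lowest to the highest value over the 15 ways of processing. In D3 over D0 and in D5 over D0 all 4 bars lie below 1, and in aged over young skin the bars of miR-148a-3p (0.414 to 0.583) and of miR-130a-3p (1.05 to 1.33) meet neither each other nor those of miR-148b-3p and miR-152-3p.

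The dim members were read against the intensity around their own spots, because the local background was uneven. On aged D0 it was 104 in the first 16 of 128 rows and 65.0 in the last 16, and all 4 empty spots lay in row 1. mmu-miR-130b-3p scanned at 114.1 on aged D0, 143.7 on D3, 103.5 on D5, 141.9 on D7 and 134.3 on young D0, and was bright on D3 alone. Its spots stood at 1.17 and 1.24 times the local background on aged D0, 2.43 and 2.39 times on D3, 1.67 and 1.76 times on D5, 1.45 and 1.38 times on D7, and 1.65 and 1.73 times on young D0. D3 was the highest array and aged D0 the lowest, without overlap of their spots. The ratio of D3 over D0 was 1.67, from 0.843 to 3.23 over the alternatives, with only scaling to the spike calibration controls below 1. The relative ratio was above 1 in all 15. It was so too for the dim probes mmu-miR-148a-5p, mmu-miR-152-5p and mmu-miR-721, so this does not set miR-130b-3p apart. miR-130b-3p also entered the D3 over D0 count only through D3, where it was high. This was opposite in direction to miR-130a-3p, which shares its seed.

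mmu-miR-301a-3p and mmu-miR-301b-3p were bright on no array. miR-301a-3p scanned at 88.4 on aged D0, 67.9 on D3, 60.2 on D5, 137.9 on D7 and 108.6 on young D0, and its spots stood at 1.36 and 1.47 times the local background on D7, 1.53 and 1.38 times on young D0 and at most 1.17 times on the other 3 arrays. It was below the detection level on aged D0 and D5, and the repeat spots gave opposite directions for D7 over D0, with ratios of 0.854 and 1.996, so no direction is given. miR-301b-3p scanned at 77.3 on aged D0, 58.3 on D3, 54.1 on D5, 99.5 on D7 and 69.7 on young D0, and its spots were between 0.93 and 1.07 times the local background on all 5 arrays. Levels of miR-301b-3p in these tissues were thus not measurable, although miR-130b-3p, whose precursor gene is its neighbour, was above background.

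The 5p arms come from the opposite strand of the same precursors and carry other seeds. All 7 were on the array and none was bright on any of the 5. mmu-miR-148a-5p stood at 1.47 and 1.49 times the local background on D7, and at most 1.16 times on the other 4 arrays. mmu-miR-152-5p stood at 1.42 and 1.51 times on D7 and at most 1.08 times elsewhere. Both were below the detection level on aged D0, D5 and young D0. In the main processing their D7 levels were at least 1.29-fold and at least 1.27-fold higher than on D0. Under scaling to the 75th percentile, the lowest of the alternatives, their D7 over D0 ratios were 0.975 and 1.05. D7 was also an array on which the corresponding 3p arms were above D5. The arms did not go together on young D0. There miR-148a-3p had its highest level, 944, while miR-148a-5p stood at 1.08 and 1.16 times the local background. miR-152-3p had a level of 885 on young D0, against 1162 on D7, with miR-152-5p at 1.01 and 1.06 times on young D0. For mmu-miR-148b-5p no spot on D7 was above 1.02 times the local background, and its highest spots were at 1.11 and 1.21 times on young D0.

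The 4 other miRNAs with the seed of the miR-130 and miR-301 family were dim as well. mmu-miR-721, which shares a run of 9 bases with miR-130a-3p past the seed, stood at 1.32 and 1.22 times the local background on D3 and at most 1.09 times elsewhere. mmu-miR-130c, mmu-miR-6341 and mmu-miR-6389 lay between 0.77 and 1.10 times the local background over all arrays. mmu-miR-6389 has the same first 15 bases as miR-130a-3p, and its probe stayed at background on the arrays where miR-130a-3p was bright.

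**Figure D4:**
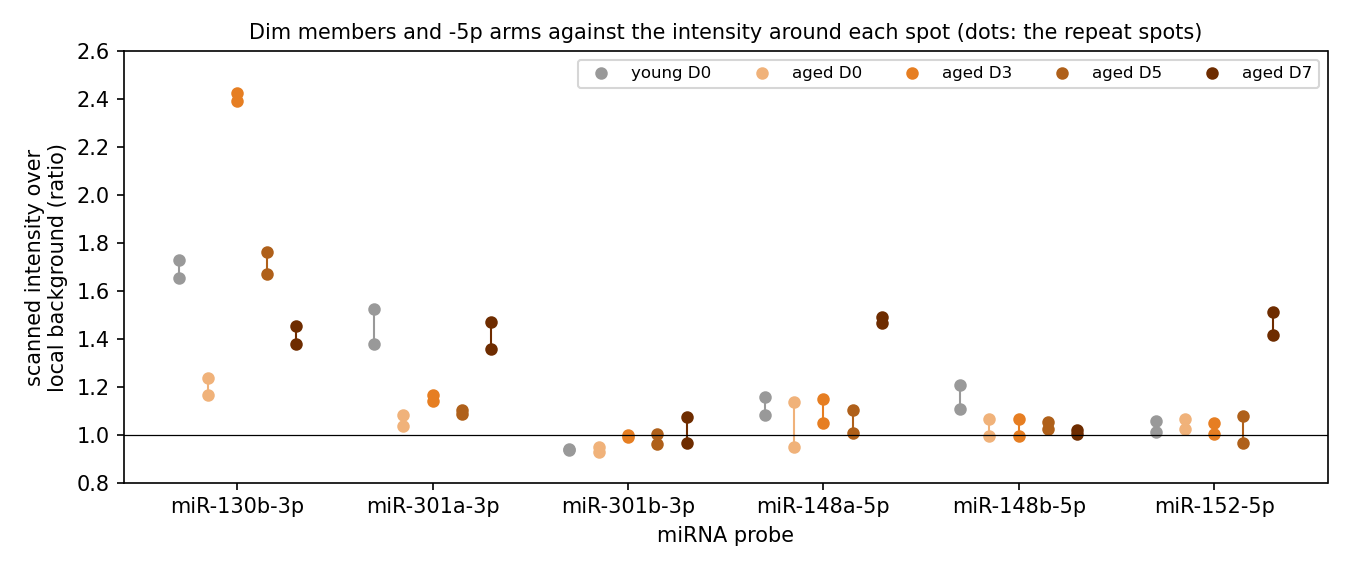
Scanned intensity over local background (ratio, 1 meaning equal to the spots around it) for the dim members and 3 of the 5p arms on each of the 5 arrays, with both repeat spots as dots. miR-130b-3p is highest on D3 (2.43 and 2.39), miR-301b-3p stays between 0.93 and 1.07, and miR-148a-5p and miR-152-5p stand out on D7.

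Other miRNAs known to act on the same targets were listed for comparison. For DNA methyltransferases these were mmu-miR-29a-3p, mmu-miR-29b-3p and mmu-miR-29c-3p, which act on Dnmt3a and Dnmt3b and on collagens. None of the 3 was 2-fold apart on D3 or D5, 1 was higher on D7 (miR-29b-3p, 2.90) and 2 were lower in aged than in young skin (miR-29b-3p, 0.32, and miR-29c-3p, 0.28). For Pparg these were mmu-miR-27a-3p and mmu-miR-27b-3p, and neither was 2-fold apart in any of the 4 comparisons. Over the 3 wound days miR-27b-3p had ratios to D0 of 0.56, 0.68 and 1.09, against 0.42, 0.81 and 0.82 for miR-130a-3p.

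The miRNAs whose patterns over the 5 arrays were nearest to each bright member were sought among the 195 other miRNAs bright on all arrays, by the root mean square difference of centred log2 levels. For miR-130a-3p these were mmu-miR-203-3p (0.16), mmu-let-7a-5p (0.18) and mmu-miR-30a-5p (0.19). For miR-148a-3p the nearest was mmu-miR-30e-5p (0.083), before mmu-miR-100-5p (0.19) and mmu-miR-20b-5p (0.20). For miR-148b-3p they were mmu-miR-24-2-5p (0.075), mmu-miR-99a-5p (0.12) and mmu-miR-1839-3p (0.12), and for miR-152-3p mmu-miR-27b-3p (0.14), mmu-miR-30c-5p (0.20) and mmu-miR-146a-5p (0.21). Members were left out of this search, and 5 arrays are too few for a correlation.

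Markers of cell types moved with the same comparisons. Levels are not comparable between probes, so a sum follows its brightest probes and can hide members going the other way. In the epithelial sum on aged D0, for example, mmu-miR-203-3p alone had a level of 9669. Summed over 5 leukocyte miRNAs, the normalized level was 1088 on aged D0, 5328 on D3, 3688 on D5, 3707 on D7 and 2652 on young D0, with mmu-miR-142a-3p undetected on aged D0. Summed over 7 epithelial miRNAs, it was 37284 on aged D0, 21290 on D3, 29054 on D5, 24746 on D7 and 21400 on young D0. For 4 skeletal muscle miRNAs it was 28504 on aged D0, 8817 on D3, 12087 on D5, 14435 on D7 and 32573 on young D0. As summed, these lists show more leukocyte and less muscle signal in every wound than in unwounded aged skin. Within the leukocyte list, mmu-miR-150-5p went the other way on D3, with a ratio of 0.74.

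On D3, 3 of 5 leukocyte miRNAs were at least 2-fold higher, while 5 of 7 epithelial and 4 of 4 muscle miRNAs were at least 2-fold lower. The epithelial miR-200c-3p went the other way, with a ratio of 2.10. Over all 345 miRNAs compared, 61 were at least 2-fold higher on D3 and 44 lower. In aged over young skin, 3 of 5 leukocyte miRNAs were at least 2-fold lower, with a median ratio of 0.268 over the list. For the epithelial list, 1 of 7 miRNAs was at least 2-fold higher, with a median of 1.45. Over all 339 miRNAs compared, 16 were at least 2-fold higher in aged skin and 46 lower. The 6 miRNAs of fibroblasts and other mesenchyme summed to 18989 on aged D0, 10580 on D3, 18616 on D5, 25472 on D7 and 17103 on young D0. In this sum D3 was the lowest and D7 the highest array, as for miR-152-3p. The single miRNAs were split, with D7 over D0 ratios from 0.578 to 4.13 and 3 of 6 at least 2-fold higher. Of the 2 endothelial miRNAs, mmu-miR-126a-5p was detected on young D0 alone and mmu-miR-126a-3p had ratios of 0.714, 1.17 and 1.02 on D3, D5 and D7. Of the erythroid miRNAs, mmu-miR-451a had ratios of 0.601, 0.927 and 0.437 on these days and 2.28 in aged over young skin, and mmu-miR-144-3p was detected on D3 alone. The part of cell composition in the members' ratios was not tested, and in whole skin fewer cells of a type cannot be told apart from less RNA in each cell.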

How the data were processed

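The authors deposited, for each array, the median intensity of every spot as scanned, on a linear scale and without normalization, and a table of 1 processed intensity for each miRNA whose background correction and normalization are not given in the sources used here. The medians of that table's columns were 5.43, 7.56, 7.01, 8.09 and 8.01 for aged D0, D3, D5, D7 and young D0. It was used only as an alternative. The scanner's background columns are empty, so limma's normexp correction (limma 3.58.1, R 4.3.3, offset 50) was fitted on the intensities of all spots. Control spots were then left out, log2 values were quantile normalized over the 5 arrays, and the 2 spots of a miRNA were averaged.

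A miRNA was compared when bright on at least 1 of the 2 arrays, and counted when its levels were at least 2-fold apart. Where it was below the detection level on 1 array, a bound is given for miR-148a-5p and miR-152-5p on D7 over D0. Elsewhere such probes entered quoted ratios, counts and medians with their plain ratios, which rest on a level near background. No test was run, and precision is limited by the 1 array per condition. Ratios and local backgrounds were computed in Python 3.11.15 with pandas 2.3.3 and numpy 2.4.6. The calculation was tested on data simulated from 1 array, with as many miRNAs raised as lowered. Differences between arrays in background were not simulated. Local background is the 25th percentile of the miRNA spots within 8 rows and 5 columns. miRNAs named are the members, the 5p arms, the miRNAs sharing a seed, the 3 nearest patterns of each bright member, and lists of cell type markers and of miRNAs with the same targets (mmu-miR-486-5p was not matched by name). The members and lists were chosen with earlier results of these data known. Alternatives covered normalization, background correction, spots, brightness rule and fold threshold. Sequences were matched to RefSeq tables of the GRCm38.p6 assembly.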

Additional observations from a re-analysis of the deposited data

How the results depend on the processing

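The counts of members at least 2-fold apart depended on the processing. For D3 over D0, the count of 2 became 5 at a 1.5-fold threshold, 4 when arrays were scaled to the spike calibration controls, and 0 at a 3-fold threshold, under cyclic loess or when arrays were scaled to the median miRNA probe. It became 1 with the authors' processed values, the first spot only, no normalization between arrays, a normexp offset of 100, quantile normalization of the 2 arrays compared, scaling to the 5S probes and scaling to the 75th percentile. With the authors' processed values this 1 member was miR-130b-3p, higher on D3 at 3.10, while miR-130a-3p was at 0.516 and miR-152-3p at 0.583. In the other settings named here it was miR-130a-3p. For D5 over D0, the count of 0 became 3 at 1.5-fold, 4 with the spike calibration controls, and 1 with the authors' processed values or with the mean of the empty spots subtracted. For D7 over D0, the count of 0 became 2 with the 5S probes and 1 with no normalization or with the median. For aged over young D0, the count of 0 became 4 with no normalization, with the 5S probes and with the median, and 1 at 1.5-fold, with cyclic loess and with the spike calibration controls. Scaling and the threshold change these counts by construction, and otherwise the cause was not tested. The other 51 counts stayed within 1.5 times the main one. Of single ratios of bright members, 94 moved by more than 1 SD of the repeat spots and 161 did not. The share of all miRNAs compared that passed the threshold ran from 6.09% to 53.0% for D3 over D0, 5.28% to 44.3% for D5 over D0, 4.35% to 41.7% for D7 over D0 and 5.90% to 72.6% for aged over young D0. Subtracting a local background was added after seeing the data. No paired analysis was possible because there is only 1 array for each condition. Signal near background limits miR-130b-3p, miR-301a-3p and miR-301b-3p.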
